A study of Mus musculus with 6 samples.

Results

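The open chromatin around 9 blood cell microRNA genes was followed in white blood cells of mice. The genes were Mir223, Mir150, Mir181a-1, Mir155, Mir146, Mir142, Mir21a, Mir17 and Mir126a, out of 2201 microRNA genes annotated on the main chromosomes. A peak counted for a gene when its summit lay within 10 kb of the hairpin in the GENCODE annotation of GRCm39. Peaks of the 6 libraries that overlapped were joined into regions, which gave 19 regions near these genes out of 62876 in all. Of the 19 regions, 11 held a peak in every library and could be tested, and 8 held a peak in 1 to 5 libraries. Mir146 and Mir181a-1 had no region within 10 kb.

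The series compared 3 control libraries with 3 libraries of high-altitude de-acclimatization, called HADA. By the study's methods all animals were male C57BL/6j mice bought as young adults, and no engineered allele is named for them. The HADA mice were kept in a hypobaric hypoxia chamber and then returned to normoxia, and the control mice were held in normoxia throughout. Leukocytes left after red cell lysis of peripheral blood were profiled by ATAC-seq, in which a transposase cuts and tags open DNA, so each library mixed several blood cell types. The labels and the study's methods name leukocytes, whereas its results name mononuclear cells, which would hold few neutrophils. The time between the return to normoxia and the blood draw was not given in the sources used here, and neither was whether each library came from a separate mouse. In such a mixture, a change in the share of a cell type and a change in opening per cell cannot be told apart.

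MicroRNAs are short RNAs cut from a hairpin by Drosha and Dicer1 and loaded onto an Argonaute protein, where bases 2 to 8, the seed, pair with messenger RNAs and lower their output. Many blood cell microRNAs follow lineage. miR-223 is abundant in neutrophils and other myeloid cells, miR-150 in mature lymphocytes and miR-181a in developing lymphocytes. miR-155 and miR-146a are induced in activated lymphocytes and macrophages, and miR-142 is made in nearly all blood cells. miR-21a is induced by inflammation and stress, the miR-17 cluster by MYC in proliferating cells, and miR-126a comes from an intron of Egfl7 in endothelium and early blood cells.

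The mature microRNAs of the 9 genes are shown so that their seeds, in capitals, can be compared. For all but Mir142 the sequence of 1 arm is given, which for Mir150 is the 3p arm, so these seeds do not stand for both products of a gene. They were read from the RefSeq table built on GRCm38.p6.
mmu-miR-223-3p: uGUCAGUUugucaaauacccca
mmu-miR-150-3p: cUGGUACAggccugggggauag
mmu-miR-181a-5p: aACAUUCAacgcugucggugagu
mmu-miR-155-5p: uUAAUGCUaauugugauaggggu
mmu-miR-146a-5p: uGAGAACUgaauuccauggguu
mmu-miR-142a-5p: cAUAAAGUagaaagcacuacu
mmu-miR-142a-3p: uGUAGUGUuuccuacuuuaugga
mmu-miR-21a-5p: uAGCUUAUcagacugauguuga
mmu-miR-17-5p: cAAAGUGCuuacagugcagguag
mmu-miR-126a-3p: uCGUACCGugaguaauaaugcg
No seed was shared between these 10 sequences. In the same table the seed of miR-17-5p was carried by 6 other mature microRNAs, among them miR-20a-5p and miR-106b-5p. The seed of miR-181a-5p was carried by 3 others (miR-181b-5p, miR-181c-5p and miR-181d-5p). miR-146a-5p shared its seed with miR-146b-5p only, and miR-21a-5p with miR-21c only. The seeds of miR-223-3p, miR-155-5p, miR-126a-3p and both miR-142a arms occurred once.

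Peaks are described by their pileup, level and centred value. The summit pileup is the number of sequenced fragments or reads stacked at the summit, recovered from the deposited fold and p-value. The level is that pileup divided by the library's genome-wide background. The centred value is the log2 pileup minus the library's median over the 23970 regions with a peak in all 6 libraries, and limma tested HADA against control on it with Benjamini-Hochberg adjustment over all 23970. The libraries held 34045 to 45799 peaks and their genome-wide background ran from 1.69 to 2.34, so a peak needed a pileup of 7 to 9 to be listed in quiet surroundings. Control 3 had the fewest peaks and, in the marker levels given further on, the highest neutrophil and the lowest B cell values, so the called regions of Mir223 and Mir150 are also given without it.

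**Figure D1:**
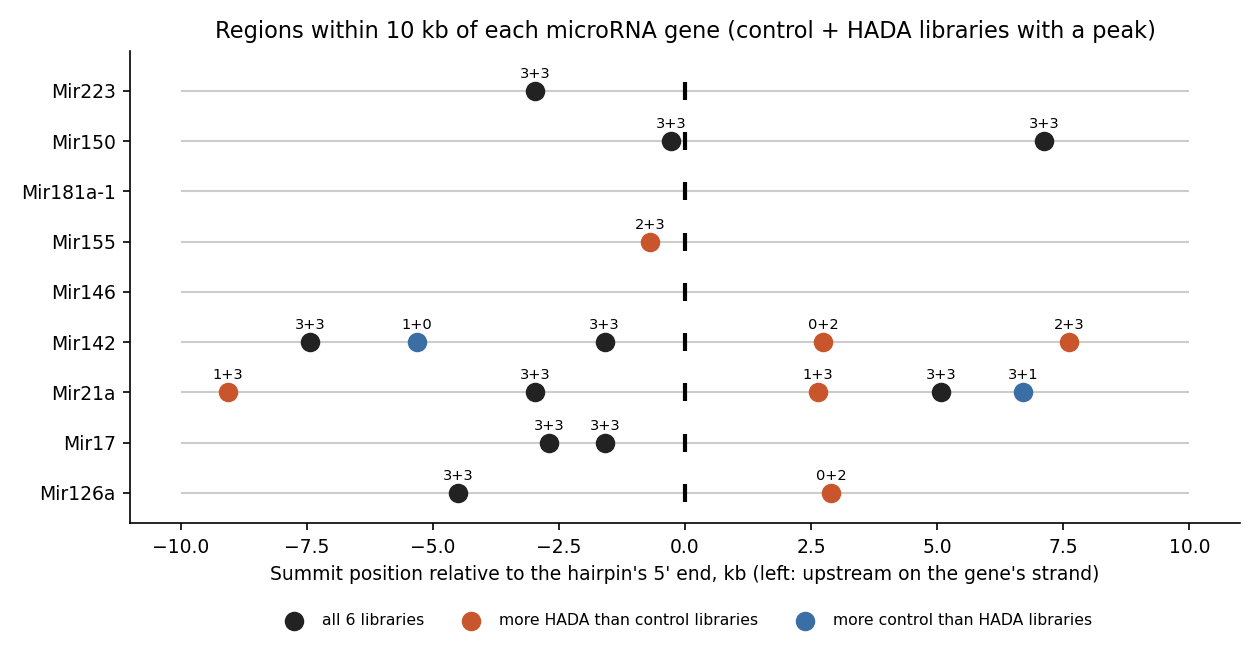
Position of each region's summit relative to the 5′ end of the microRNA hairpin, in kb, with upstream on the left. Each of the 18 points is a region and the numbers above it count the control and HADA libraries with a peak. Mir146 and Mir181a-1 have no point, and the 10 black points are regions that held a peak in all 6 libraries.

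Among the 11 tested regions, 1 was higher in HADA (beside Mir150) and 3 were lower (1 at Mir223 and 2 at Mir21a). Those shares were 9.09% and 27.3%, against 17.9% and 24.1% of all shared regions called in the same directions. The median difference was -0.26 on the log2 scale over the 11 regions and -0.04 over all shared regions. The HADA libraries lay wholly above the controls in 2 of the 11 regions and wholly below in 4, where 29.3% and 31.2% of all shared regions did so. As a group, then, the members moved about as often as other regions, and the values below belong to single genes.

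The myeloid gene Mir223 was less open in HADA. Its 1 region covered the start of its host transcript Mir223hg (chrX:95283264-95284434), with the summit in the annotated exon and 2965 bases upstream of the hairpin. The summit pileup was 123, 105 and 235 in control 1 to 3 and 109, 68 and 75 in HADA 1 to 3. Control 3 stood highest, and the pileups of the groups overlapped because HADA 1 exceeded control 2. As levels over the genome-wide background the values were 84.1 ± 39.9 in control and 37.9 ± 7.54 in HADA (SD, n = 3 each), with every HADA library below every control. The centred value fell by 1.44 ± 0.35 (SE), a ratio of 0.37, with a limma adjusted p of 0.0166. By mean centred value the region ranked above 81.3% of shared regions in control and above 49.7% in HADA.

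The local background at the Mir223 peak moved with its summit. Caller options were not given, so whether the peak's own reads enter that background is not known. The local background that the peak caller assigned there was 18.7, 15.5 and 34.2 in the controls and 13.2, 7.81 and 7.95 in HADA. The fold of the peak over that local background was therefore no lower in HADA, at 7.77, 7.83 and 8.49 against 6.31, 6.44 and 6.70 in control. Ranked by this fold the difference turned to 0.33 ± 0.15 rank units with an adjusted p of 0.162, so the lower opening at Mir223 was seen in pileup and not in local contrast. Without HADA 2 the pileup difference was -1.36 with an adjusted p of 0.0617, and without control 3 it was -1.02 with an adjusted p of 0.0128.

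The 200 bases around the Mir223 summit on the plus strand of GRCm39 (chrX:95283355-95283554) are shown because they carry this difference. The letters of the 9 motifs searched on both strands did not occur there, and so nothing is in capitals.
Mir223hg start: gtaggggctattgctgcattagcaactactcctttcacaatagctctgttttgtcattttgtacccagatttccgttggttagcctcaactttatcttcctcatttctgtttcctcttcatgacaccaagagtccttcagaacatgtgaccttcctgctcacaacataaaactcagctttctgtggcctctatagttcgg

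At the lymphoid gene Mir150, 1 of its 3 shared regions passed the test, and it was higher in HADA. This region, next to the hairpin (chr7:44770558-44771341), had its summit 282 bases upstream of the hairpin and overlapped the start of the lncRNA Gm45552. Its pileup was 70, 58 and 35 in control 1 to 3 and 162, 170 and 183 in HADA 1 to 3. The groups did not overlap, and the lowest value was in control 3, the library with the highest Mir223 value. The level was 29.6 ± 11.2 in control and 78.4 ± 8.28 in HADA (SD, n = 3 each). The centred value was higher by 1.09 ± 0.23 (SE), a ratio of 2.13, with a limma adjusted p of 0.0128. Here the fold over local background rose as well, from 3.48, 3.27 and 2.42 to 4.45, 5.21 and 5.10. Without HADA 2 the difference was 1.04 with an adjusted p of 0.0543, and without control 3 it was 0.87 with an adjusted p of 0.0159.

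The Rpl13a start, at the far end of the Mir150 window, was compared with it. Rpl13a encodes a ribosomal protein, and its region (chr7:44777930-44778897) had its summit 7123 bases from the hairpin's 5′ end. The pileup was 308, 265 and 342 in control and 517, 419 and 372 in HADA. Every HADA pileup was above every control, but the centred values overlapped. The centred difference was -0.12 ± 0.20 with a limma adjusted p of 0.66, and its sign turned when pileups were divided by the genome-wide background (0.263).

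A ratio of the pileups at the Mir223 region and at the Mir150 region nearest its hairpin needs no scaling between libraries. It was 1.76, 1.81 and 6.71 in control 1 to 3 and 0.673, 0.40 and 0.41 in HADA 1 to 3, so the Mir223 peak was the taller of this pair in every control and the Mir150 peak in every HADA library. The log2 ratio was 1.47 ± 1.10 in control and -1.06 ± 0.42 in HADA (SD, n = 3 each), a 5.79-fold shift, which was 3.72-fold without control 3. Against the mean of all shared Mir150 regions on the centred scale, Mir223 was at -0.33, -0.42 and 0.89 in control and at -1.35, -1.79 and -1.70 in HADA, a 3.16-fold shift, so Mir223 was then above Mir150 in control 3 only. The contrast is given as a description with no test, since both genes were chosen for their lineages. Control 3 stood apart from the other controls, whose ratios were nearly equal.

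Promoters of cell type marker genes were read in the same libraries. Their summed level (tallest region within 3 kb of each gene's starts, over the genome-wide background) ran from 397 to 956 over the controls for 12 neutrophil markers, highest in control 3, and from 186 to 318 over the HADA libraries. A gene with no listed peak in a library added nothing to that library's sum. For 10 B cell markers the controls spanned 28.4 to 257, lowest in control 3, and the HADA libraries 600 to 683. The 12 T cell markers summed to 257 to 363 and 422 to 478. Of the tested regions, 9 of 10 at neutrophil markers were lower, and 8 of 12 at monocyte markers were lower and 1 higher. At B cell markers 4 of 4 tested regions were higher, and at T cell markers 3 of 11, or 27.3%. Over all shared regions 17.9% were higher and 24.1% lower. The lists held 28 neutrophil, 18 monocyte, 17 B cell and 19 T cell regions in all, so many regions were not tested. Camp in the neutrophil list and Cd8a in the T cell list had no region. The summed monocyte level overlapped between groups (299 to 406 and 337 to 394). The part of these markers in the Mir223 and Mir150 values was not tested.

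**Figure D2:**
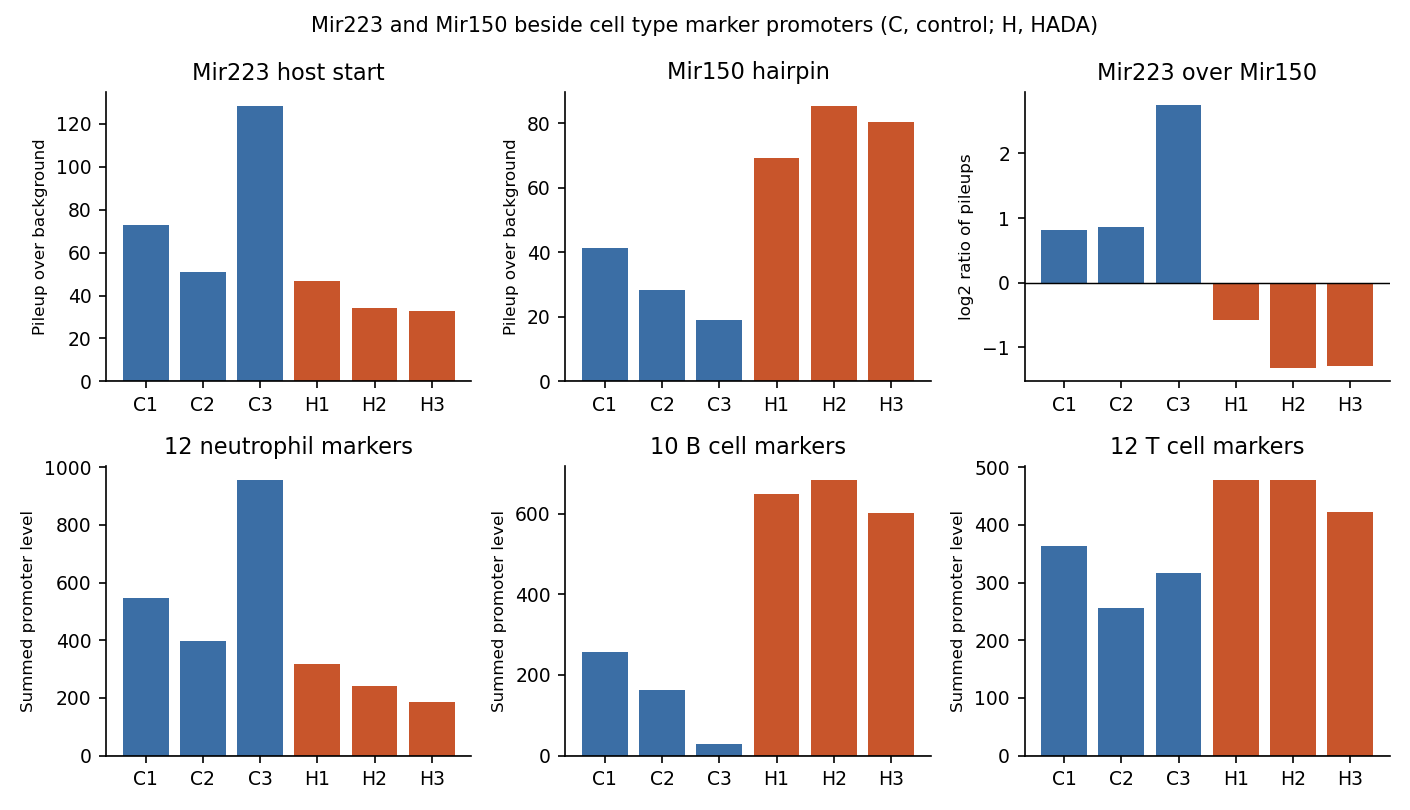
Upper row, level of the Mir223 host start and of the Mir150 hairpin region over the genome-wide background, and the log2 ratio of their pileups, in each library. Lower row, summed promoter level of the neutrophil, B cell and T cell marker lists. Control 3 has the highest Mir223 and neutrophil values and the lowest Mir150 and B cell values, and the log2 ratio is above 0 in the 3 controls and below 0 in the 3 HADA libraries.

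The other lymphoid gene, Mir181a-1, was far from any peak. Its hairpin lies inside Mir181a-1hg, and the nearest region, 43625 bases away, held peaks in the 3 HADA libraries only, with pileups of 42, 31 and 32. The nearest region shared by all libraries was at the start of Mir181a-1hg (chr1:137826026-137826903), 67796 bases upstream. Its pileup was 46, 32 and 26 in control and 71, 90 and 90 in HADA. The pileups did not overlap, but on the centred scale control 1 (-0.33) lay above HADA 1 (-0.37). The centred difference was 0.68 ± 0.24 with a limma adjusted p of 0.0499, at the edge of the threshold. It missed the threshold under 7 of 11 alternatives, with adjusted p from 0.00203 to 0.648, and among single libraries it was lost without control 2 (0.103), control 3 (0.112), HADA 2 (0.173) or HADA 3 (0.156).

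The activation-linked gene Mir155 had 1 region within 10 kb, inside Mir155hg and 698 bases upstream of the hairpin (chr16:84510036-84511223). Its pileup was 11 and 11 in control 1 and control 2, with no peak in control 3, and 38, 36 and 42 in HADA. A pileup of 10 would have been enough for a peak in control 3 at the local background of the other libraries, so the missing peak sets only an upper limit. As levels the values were 6.52 and 5.36 in the controls with a peak and 16.2, 18.1 and 18.5 in HADA. The region could not be tested because it lacked a peak in 1 library.

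The start of Mir155hg lay just outside the window, 11008 bases upstream of the hairpin (chr16:84499631-84500559). The pileup was 33, 12 and 8 in control and 46, 56 and 52 in HADA. Every HADA pileup was above every control, but on the centred scale control 1 (-0.81) fell inside the HADA values (-1.0 to -0.46). The centred difference was 1.18 ± 0.43 with a limma adjusted p of 0.0582, and without control 1 it was 1.71 with an adjusted p of 0.0108. Divided by the genome-wide background, a scale on which the median of all shared regions rose by 0.339, it was 1.55 with an adjusted p of 4.41e-06. The side of the threshold thus changed with the scaling and with control 1.

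Around the Mir155 summit the AP1 letters, TGANTCA, stood 7 bases from the summit. AP1 is the binding motif of the Fos and Jun factors, which are induced on cell activation. The 200 bases are printed to show it in capitals (chr16:84510230-84510429, plus strand, GRCm39).
Mir155 upstream region: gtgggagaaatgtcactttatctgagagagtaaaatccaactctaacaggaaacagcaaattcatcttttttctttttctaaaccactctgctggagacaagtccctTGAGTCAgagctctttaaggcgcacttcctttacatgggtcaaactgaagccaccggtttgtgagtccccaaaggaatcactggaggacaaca

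Mir146, whose product damps signalling downstream of Toll-like receptors, had no region within 10 kb. The nearest one lay 10935 bases upstream (chr11:43275810-43276662) and was shared by all libraries, 85 bases from an annotated start of the host lncRNA Gm73818. Its pileup was 105, 107 and 77 in control and 115, 131 and 134 in HADA. Although every HADA pileup was above every control, the centred values overlapped and differed by -0.22 ± 0.19 with a limma adjusted p of 0.381, and divided by the genome-wide background the difference was 0.16. The fold over local background was 12.11, 11.99 and 13.62 in control and 8.41, 9.99 and 8.23 in HADA, with no overlap. In ranks of that fold HADA differed from control by -0.845 ± 0.165 rank units with a limma adjusted p of 0.0326. The local background there was 7.75, 8.01 and 4.73 in control and 12.8, 12.2 and 15.4 in HADA. The lower fold thus went with a higher local background and not with a lower pileup. In an intron of the host lncRNA Gm73818, 937 bases from one of its annotated starts (chr11:43278771-43279484), a peak was listed in control 2 alone of the controls, with a pileup of 36. The HADA libraries had 95, 90 and 123 there. In control 1 and control 3 a pileup of 20 and of 22 would have been listed.

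Mir142 had the tallest region of all members. It lay 7440 bases upstream of the hairpin (chr11:87639428-87641170), reached pileups of 602, 451 and 753 in control and 785, 585 and 608 in HADA, and ranked above 99.4% of shared regions in control. The region at the start of Mir142hg (chr11:87645510-87648175) held 320, 263 and 412 in control and 487, 356 and 424 in HADA. Both overlapped between groups.

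The centred differences at Mir142 were -0.48 ± 0.24 and -0.26 ± 0.23, with limma adjusted p of 0.146 and 0.383. Without control 2 the first was -0.68 with an adjusted p of 0.0471. The second turned sign under the background division (0.115) and in the fold ranks (0.119). In HADA the first region ranked above 99.2% of shared regions, so both groups had it among their tallest.

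Around these peaks the caller's local background was high, which decides whether a neighbour is listed. A region 5318 bases upstream was listed in control 3 alone, with a pileup of 181 over a local background of 131. In the libraries without a peak there a pileup of 157 to 210 would have been needed. A region 2737 bases downstream was listed in HADA 2 and HADA 3 with 163 and 191, where 101 to 134 would have been needed in the others. A region 7614 bases downstream, in Tspoap1, was listed in 5 libraries with 38 and 31 in control and 56 to 70 in HADA. An absent peak at Mir142 thus does not show closed chromatin.

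**Figure D3:**
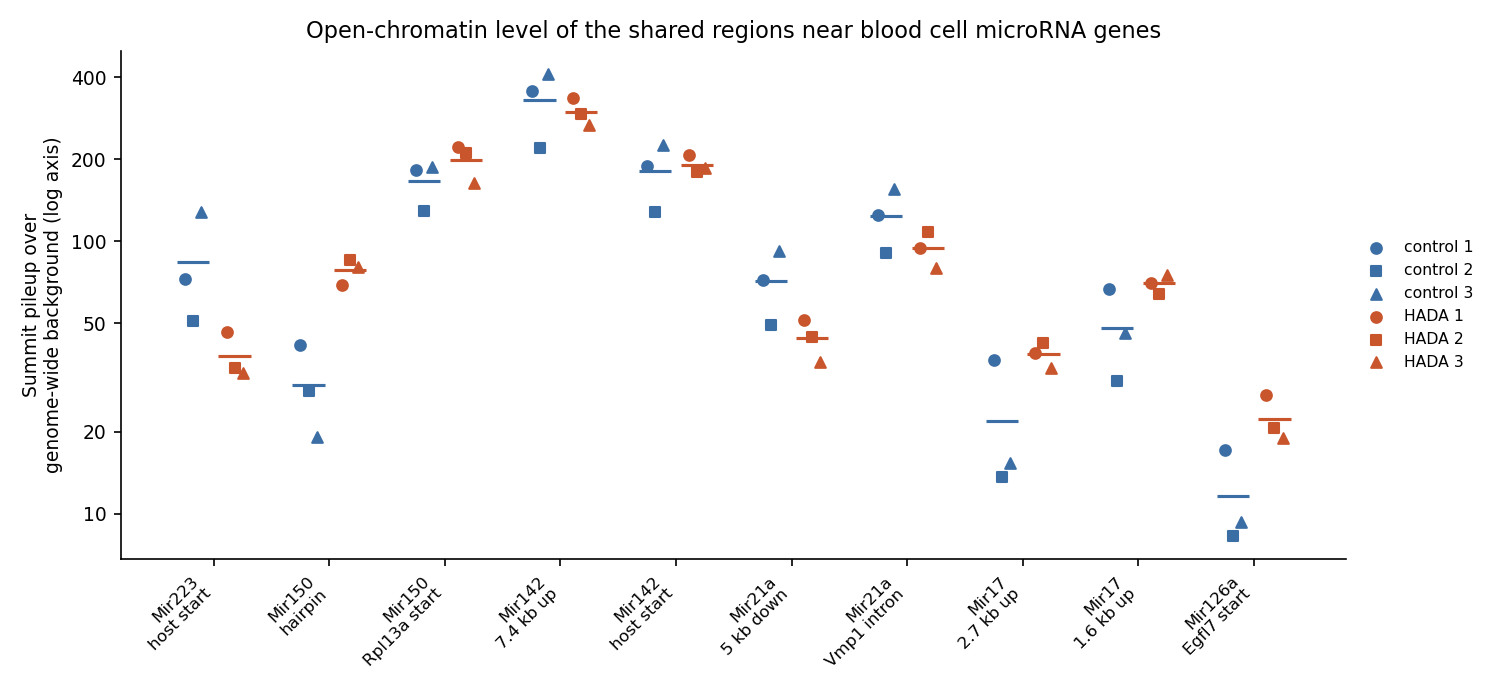
Summit pileup over the genome-wide background, on a log axis, at 10 of the 11 shared regions in each library. Symbols mark the replicate number, blue is control and orange is HADA, and each bar is the mean of 3 libraries. The HADA points lie below the controls at Mir223 and above them at the Mir150 hairpin, while both Mir142 regions overlap.

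Mir21a had 5 regions, of which the 2 shared by all libraries were lower in HADA on the centred scale and neither passed the test when pileups were divided by the genome-wide background. The gene lies at the end of Vmp1, a gene for a protein of autophagy. The region 5079 bases downstream of the hairpin's 5′ end, at the start of the transcript Gm9975 (chr11:86469525-86470298), had pileups of 122, 101 and 169 in control and 120, 89 and 82 in HADA. The pileups overlapped, whereas the centred values did not, and they differed by -1.04 ± 0.26 with a limma adjusted p of 0.0178. Divided by the genome-wide background the difference was -0.66 with an adjusted p of 0.0546, and the adjusted p was 0.0622 without HADA 2 and 0.0618 without HADA 3. In the fold ranks the difference was -0.156 with an adjusted p of 0.519.

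The second region lay 2965 bases upstream in a Vmp1 intron, 217 bases from an alternative Vmp1 start (chr11:86477169-86478466). Its pileup was 210, 186 and 285 in control and 221, 216 and 181 in HADA. These overlapped, and the centred difference was -0.75 ± 0.24 with a limma adjusted p of 0.0389, or -0.37 with an adjusted p of 0.30 under the background division. The call was lost under 6 of 11 alternatives, including the leave-out of HADA 1 (0.103), HADA 2 (0.0798) or HADA 3 (0.125), and the direction turned in the fold ranks (0.105). In contrast, the main Vmp1 promoter, 99869 bases from the hairpin, had pileups of 92 to 110 in control and 141 to 182 in HADA, with a centred difference of 0.02 ± 0.17 and an adjusted p of 0.938.

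Another 3 regions near Mir21a could not be tested. The one 6704 bases downstream was listed in all controls with 82, 72 and 102 and in HADA 1 alone with 70, where HADA 2 and HADA 3 would have needed 45 and 50. The one 2633 bases downstream was listed in control 3 with 81 and in HADA with 103, 96 and 114. The one 9058 bases upstream was listed in control 1 with 18 and in HADA with 35, 41 and 33. Neighbouring regions of a single gene thus had more peaks in control in 1 case and more in HADA in 2.

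The AP1 letters were found in 5 of the 19 regions, that is at Mir155, at the Mir142hg start and at 3 regions of Mir21a, while 5.49% of all 62876 regions held them within the 200 bases. The Vmp1 intron window (chr11:86477937-86478136, plus strand, GRCm39) is printed with the AP1 letters in capitals because it lay under a lower call.
Mir21a upstream region: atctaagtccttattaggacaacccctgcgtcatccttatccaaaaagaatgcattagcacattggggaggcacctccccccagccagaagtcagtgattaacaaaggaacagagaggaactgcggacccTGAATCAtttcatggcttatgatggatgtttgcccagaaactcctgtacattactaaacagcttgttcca
The regions with AP1 letters included a lower call, a region that overlapped, 1 with more peaks in control and others with more in HADA. The letters thus did not go with 1 direction. Of the other motifs, RUNX (TGTGGT), named for a family that shapes most blood lineages, was in 3 regions against 17.6% of all regions. PU1 (GAGGAAGT), the motif of a myeloid and B cell factor, was in 1 against 4.12%. The E-box of MYC (CACGTG) was in 1 region, at the Rpl13a start, against 3.66% of all regions. The motif of the GATA factors, which direct erythroid cells among others, is searched as AGATAAG and was in 1 against 1.74%. CEBP (TTGCNNCAA), the motif of a myeloid family, was in none against 1.36%. The longer motifs NFKB, EBF and CTCF were in 2, 1 and 0 regions, against 6.10%, 0.728% and 0.191%.

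At Mir17, the first hairpin of a cluster of microRNAs, both regions lay in the host Mir17hg upstream of the hairpin. The farther one, 2689 bases upstream and 120 bases from an annotated host start (chr14:115277784-115278611), had pileups of 62, 28 and 28 in control and 91, 84 and 78 in HADA. The nearer one, 1580 bases upstream (chr14:115279351-115279946), had 113, 63 and 84 in control and 165, 128 and 171 in HADA. Every HADA pileup was above every control at both.

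On the centred scale the Mir17 values overlapped, and the differences were 0.58 ± 0.28 and 0.24 ± 0.23 with limma adjusted p of 0.129 and 0.43. Control 1 stood above the other controls at both regions. Without it the farther region differed by 0.91 with an adjusted p of 0.0127, and divided by the genome-wide background, with all libraries, by 0.96 with an adjusted p of 0.00507. The nearer region, with all libraries, turned sign in the fold ranks (-0.196).

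Mir126a had a low region 4495 bases upstream, 172 bases from a start of its host Egfl7 (chr2:26476519-26477314). Its pileup was 29, 17 and 17 in control and 64, 41 and 43 in HADA, with no overlap. The level was 11.6 ± 4.87 in control and 22.3 ± 4.47 in HADA (SD, n = 3 each). The centred difference was 0.63 ± 0.23 with a limma adjusted p of 0.0593, and without control 1 it was 0.83 with an adjusted p of 0.0208. Divided by the genome-wide background it was 1.0 with an adjusted p of 0.00336. A second region 2892 bases downstream was listed in HADA 1 and HADA 2 with 10 and 20. Of 10 endothelial markers, 5 had no region (Tek, Kdr, Cldn5, Emcn and Robo4), and their list, which holds Egfl7 itself, spanned 79.4 to 107 over the controls and 172 to 205 over the HADA libraries. On the centred scale 0 of its 4 tested regions were higher and 1, at Vwf, was lower (-0.77, limma adjusted p 0.013), with a median difference of 0.11 over the 4. Over all shared regions 17.9% were higher and 24.1% lower.

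**Figure D4:**
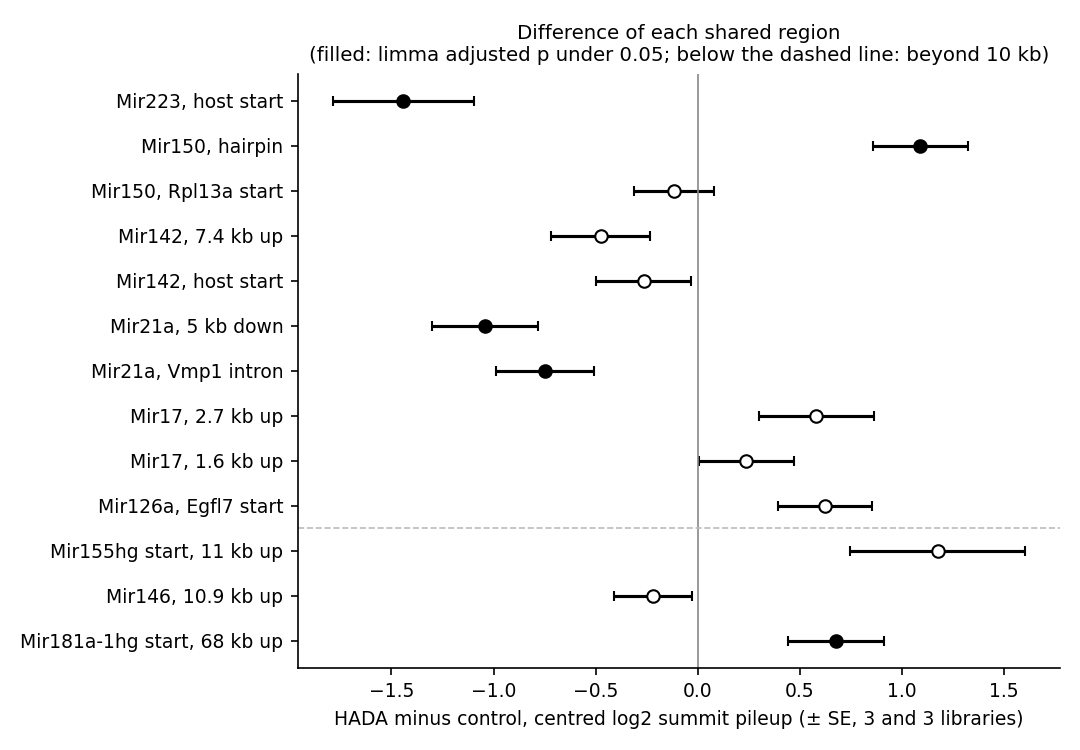
Difference between HADA and control in centred log2 summit pileup, with its SE from limma, for 10 of the 11 shared regions within 10 kb and, under the dashed line, the nearest shared region of Mir155, Mir146 and Mir181a-1. Filled points have an adjusted p under 0.05. Mir223 lies farthest to the left at -1.44, and the Mir150 hairpin at 1.09 is the filled point farthest to the right.

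The number of member peaks per library was 16, 14 and 15 in control and 19, 18 and 17 in HADA, a mean difference of 3.0 with no overlap. Per 10000 peaks of the library it was 3.86, 3.40 and 4.41 in control and 4.28, 4.09 and 3.71 in HADA, which overlapped. When only the 34045 strongest peaks of each library were kept, the mean difference in member peaks was 3.33. Of the 8 regions not in all libraries, 6 were in more HADA than control libraries and 2 the reverse, where 57.3% of all such regions leaned towards HADA. None of the 19 was in all libraries of 1 group and none of the other, while 7.01% of all regions were listed in the 3 HADA libraries only and 1.88% in the 3 controls only.

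The genes that make and load microRNAs were read at their promoters, within 3 kb of a start. All 14 had a region, and of 16 tested regions 3 were higher and 1 was lower, which is 18.75% and 6.25% against 17.9% and 24.1% of all shared regions. Drosha, the nuclear hairpin-cutting enzyme, was higher by 0.78 ± 0.20 (limma adjusted p 0.0195). Dicer1, which cuts the hairpin loop in the cytoplasm, was higher by 0.81 ± 0.18 (0.0144), and Ago1, an Argonaute, by 0.80 ± 0.24 (0.0309). Ago2, the Argonaute that can slice its target, had 1 region that fell by 1.30 ± 0.30 (0.0149) and another with a difference of -0.36 ± 0.22 (0.202).

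Of 47 other blood microRNA genes, 45 were matched by name in the annotation and 9 of those had no region within 10 kb (Mir486a and Mir92a-1 were not matched and not searched). Of 34 tested regions, 8 were higher (23.5%) and 5 lower (14.7%), against 17.9% and 24.1% of all shared regions. The list holds Mir20a, whose tested regions are the Mir17 regions described above, so it is not wholly separate from the members. Over all annotated microRNA genes 148 of 832 were higher (17.8%) and 118 lower (14.2%). Mir342, a lymphoid microRNA in an intron of Evl, had pileups of 62, 56 and 21 in control and 238, 188 and 189 in HADA and was higher by 1.66 ± 0.34 (limma adjusted p 0.0118). Mir182 and Mir183 shared a region higher by 0.91, Mir378a was higher by 0.90 and Mir106b and Mir25 shared a region higher by 0.71. Mir339 had 1 region that fell by 1.32 ± 0.26 (0.0112) and another with a difference of 0.285 ± 0.204 (0.284). Mir23a, Mir24-2 and Mir27a shared a called region with a difference of -1.02. Mir15b with Mir16-2, Mir132 with Mir212, and Mir210, the microRNA best known for induction by hypoxia, each had regions in both directions. At Mir210 the called differences were 0.60, 0.86 and -0.67.

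The protein-coding promoters whose 6 values were most like those of Mir223 were Cfap54, Pygl and Cd300lf, among 10698 promoter regions compared. The root mean square difference over the 6 libraries, after each region's mean was taken off, was 0.073, 0.080 and 0.084 on the log2 scale. For the Mir150 hairpin region they were Foxp4, Irak1bp1 and Efcab8 (0.049, 0.054 and 0.055), and for the Mir155hg start Lrrc74b, Golm2 and Espn (0.132, 0.19 and 0.196). The closest to Mir223, Cfap54, had pileups of 117, 95 and 232 in control and 93, 59 and 67 in HADA. The closest to Mir150, Foxp4, had 91, 80 and 44 in control and 213, 227 and 229 in HADA. These promoters were chosen for matching the 6 values, so their likeness is a description only.

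**Figure D5:**
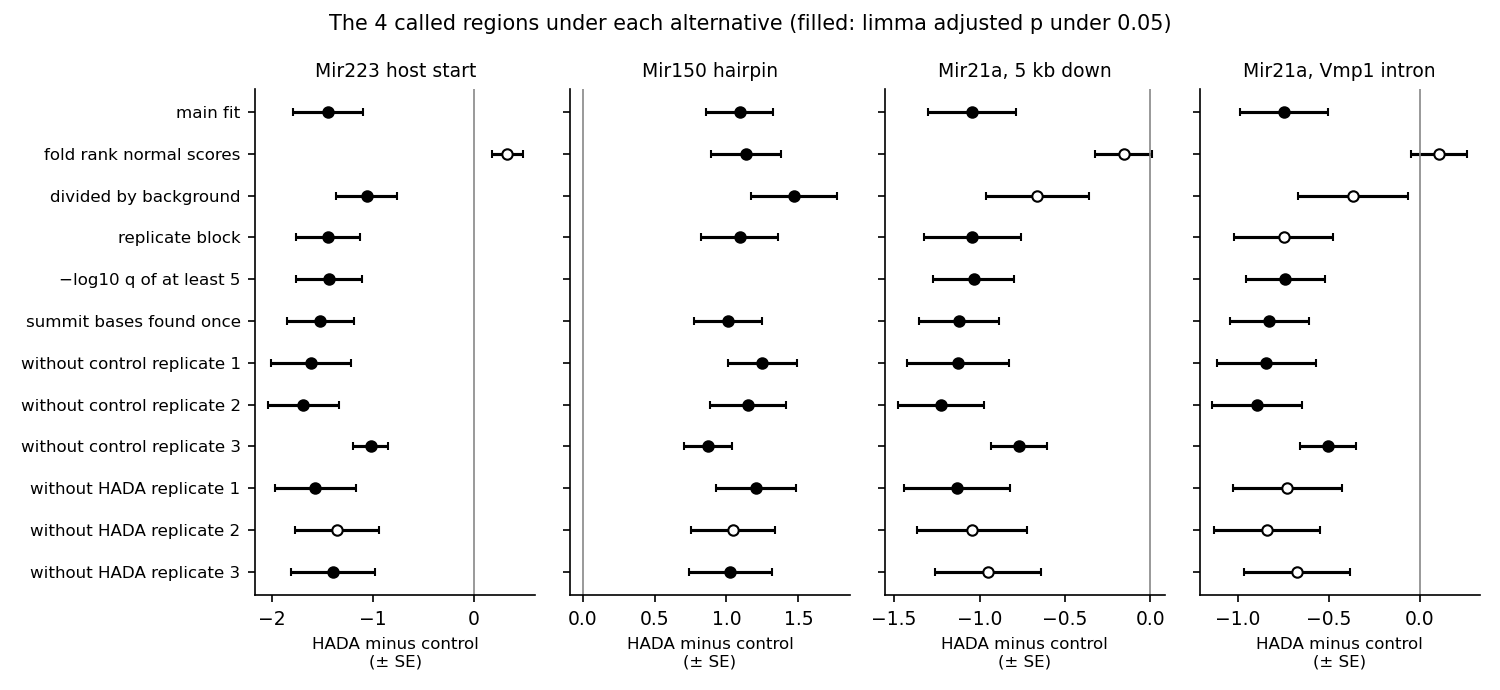
Difference between HADA and control (± SE) for the 4 called regions in the fit as reported and under each alternative, with filled points for a limma adjusted p under 0.05. Values are log2 except in the fold ranks, which are normal scores. The Mir150 region keeps its direction in all alternatives shown, and Mir223 crosses 0 in the fold ranks only.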

How the data were processed

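The 6 ATAC-seq libraries of mouse leukocytes (3 control, 3 HADA, grouped by their titles) were used. Per the labels, the authors used FastQC, Trimmomatic, Bowtie2, Picard, MACS2, featureCounts and bedtools with GRCm39, and each library was called by itself; versions, caller options and a Tn5 shift were not given in the sources used here. The deposited peak lists hold a score, a fold (ratio) over local background, −log10 p and −log10 q at each summit, and the summit offset. No read totals were given, so depth was read from the genome-wide background. Summit pileup and local background were solved from the deposited fold and −log10 p for 100% of peaks. Main-chromosome peaks sharing at least 1 bp were joined. Centred log2 pileups of the regions with a peak in all 6 libraries were tested with limma 3.58.1 (R 4.3.3), which was tested on simulated data; this filter leaves out regions that lack a peak in any library. Replicates are separate libraries, so p-values measure only the spread between them. Libraries with the same replicate number were not treated as pairs. Annotation was GENCODE M39. The values of 1 shared region in the Mir150 window are not reported here. Motifs were searched in the 200 bases around each region's tallest summit. All 8 hairpins compared were identical in GRCm39. Members and lists were chosen with earlier results of these data known. Named were all members with their shared regions, the called genes of other lists, and the 3 promoters most like Mir223, Mir150 and Mir155. Of the marker lists not described with the results, NK cell markers had 0 higher and 0 lower of 3 tested regions (summed level 24.6 to 65.2 in control, 68.8 to 86.6 in HADA), eosinophil and basophil markers 0 and 2 of 2, both at Siglecf (21.9 to 46.2 and 72.1 to 78.2), and erythroid and platelet markers 2 and 0 of 3 (76.5 to 98.3 and 167 to 210.3). Over all shared regions 17.9% were higher and 24.1% lower. A gene with no listed peak in a library added nothing to its summed level, so a sum can rise where the tested regions are lower.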

Additional observations from a re-analysis of the deposited data

How the results depend on the processing

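The calls rested on how a peak's height was scaled. With limma on ranks of the fold over local background, 1574 shared regions were higher and 1146 lower, against 4291 and 5769 as reported, and the member counts were 1 and 0 (2 and 1 at an unadjusted p under 0.05). Directions turned in these ranks at Mir223 (0.328), the Mir142hg start (0.119), the Mir21a region in Vmp1 (0.105) and the nearer Mir17 region (-0.196). Division by the genome-wide background moved the median of all shared regions to 0.339, with 7437 higher, 4396 lower, and 3 (Mir150 hairpin, farther Mir17 region, Mir126a) and 1 members. It turned the Rpl13a start (0.263), the Mir142hg start (0.115) and the region nearest Mir146 (0.161), each value being below that shift. At −log10 q of at least 5 no member was higher by limma (1 at an unadjusted p under 0.05), because control 3's Mir150 peak was under that limit. Leaving out 1 library gave 801 to 4656 shared regions higher and 2056 to 5842 lower, and 0 to 3 members higher and 0 to 4 lower. The lowest counts came without HADA 2 (0 and 0 members, 2 and 3 at an unadjusted p under 0.05), and 1892 and 1583 regions were higher without HADA 1 and HADA 3. Without single libraries the Rpl13a start ran from -0.228 to 0.039, with its sign turned without control 3. Deviations from the group mean in libraries with the same replicate number had correlations of -0.080, 0.075 and -0.376. With 3 libraries per group such values cannot show whether the libraries were paired. A replicate block left 2991 higher and 5660 lower and 1 and 2 members, and took the Mir155hg start past the threshold (1.18, adjusted p 0.0496). The difference in member peaks, 3.0 per library, was 4.33 within 20 kb, 5 at −log10 q of at least 5 and 2.5 to 3.5 without single libraries. The Mir223 minus Mir150 contrast was -1.66 over all regions of each gene and -2.53 with the nearest regions only (3.72-fold without control 3). Over 141 alternatives of single regions, 106 kept direction and side of the threshold, 18 lost and 9 gained it, and 8 turned. Values of the Mir181a-1hg start, and of the ratio of Mir223 to Mir150 without control 3, were added after seeing the data. Leaving out single libraries at Mir223 and Mir150 was planned, but printing the values without control 3 there was decided after seeing the data. The cause of these changes was not tested.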
